A study of Mus musculus with 14 samples.

Results

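The genes described are 10 chemokine ligands made by mast cells, chosen by name out of the 55487 genes counted: Ccl1, Ccl2, Ccl3, Ccl4, Ccl6, Ccl7, Ccl9, Ccl17, Ccl22 and Cxcl2. They were measured by RNA sequencing in 14 libraries, each made from up to 100 mast cells sorted from both ears of mice. The first group was resident mast cells of untreated mice (libraries 1 to 5), and the second was resident mast cells of mice treated with MC903 (libraries 6 to 10). The third was mast cells of MC903-treated mice that the sample titles call bone marrow mast cells (libraries 11, 13, 14 and 15). MC903 (calcipotriol) is a vitamin D analogue that produces an inflammation resembling atopic dermatitis when it is put on mouse skin. The protocol in the labels names resident and integrin β7-positive mast cells only, so the third group was taken to be the integrin β7-positive cells. No bone marrow mast cells of untreated mice were among the libraries, so MC903 treatment and cell population cannot be told apart where the third group is set against the first. The labels give no strain, sex, age or dose, and they do not say how many mice stood behind a library. The p-values below therefore measure the spread between these libraries, which may in part be technical.

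Chemokines are small secreted proteins that steer the movement of leukocytes by binding G protein-coupled receptors on them. Ccl2 and Ccl7 bind Ccr2 and draw monocytes, Ccl3 and Ccl4 draw macrophages and T cells, Ccl6 and Ccl9 are rodent ligands of Ccr1, Ccl1 binds Ccr8, Ccl17 and Ccl22 bind Ccr4 and draw T cells, and Cxcl2 binds Cxcr2 and draws neutrophils. Mast cells sit in the dermis around vessels and nerves, and activation through the IgE receptor or by danger signals makes them transcribe several of these genes, in part through NF-kappa B and AP-1.

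Of the 10 genes, 7 lie on chromosome 11 (GRCm38), in groups of neighbours. Ccl2 (82035571 to 82037453, plus strand) and Ccl7 (82045712 to 82047525, plus strand) are 8.3 kb apart, and Ccl1 (82176657 to 82305690, minus strand) follows 129.1 kb further on, after Ccl11, Ccl12 and Ccl8. Ccl9 (83572919 to 83578636, minus strand) and Ccl6 (83587882 to 83593087, minus strand) are 9.2 kb apart, and Ccl3 (83647844 to 83649355, minus strand) and Ccl4 (83662584 to 83664683, plus strand) 13.2 kb apart. Ccl22 (94745590 to 94751699, plus strand) and Ccl17 (94810453 to 94812036, plus strand) are on chromosome 8 with Cx3cl1 between them, and Cxcl2 (90903871 to 90905938, plus strand) is on chromosome 5. All are protein-coding genes. The longest stretch that any pair of them shares exactly in its transcripts was 25 bases, between Ccl6 and Ccl9, and Ccl2 and Ccl7 share one of 23 bases. Ccl2 overlaps Gm17268 on the other strand, which was at no more than 0.327 CPM, and Ccl6 overlaps E230016K23Rik on the other strand, which was at no more than 3.59 CPM and at 0 in library 15.

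The sequences before the start of 4 genes are shown because, of the 5 tested genes that the RefSeq table holds, these had the largest differences between bone marrow and MC903 resident cells (log2 4.27 to 7.68, against 0.77 for Ccl1). Of the 4 genes, only Ccl9 had an adjusted p-value under 0.05 (0.0449, edgeR), and the Ccl6 difference was 1.53 without library 15. Ccl6 and Ccl9 among them are neighbours. They are the 250 bases before the start in RefSeq (GRCm38.p6), 5′ to 3′ on the gene's own strand: Ccl3 chr11:83649379-83649628 (minus), Ccl6 chr11:83593088-83593337 (minus), Ccl9 chr11:83578637-83578886 (minus) and Cxcl2 chr5:90903649-90903898 (plus). The last bases of the Cxcl2 window lie inside the gene as GENCODE places it. Capitals mark matches, on either strand, to a kappa B motif (GGG, then 5 bases of any kind, then CC) and to an AP-1 motif (TGANTCA).
Ccl3: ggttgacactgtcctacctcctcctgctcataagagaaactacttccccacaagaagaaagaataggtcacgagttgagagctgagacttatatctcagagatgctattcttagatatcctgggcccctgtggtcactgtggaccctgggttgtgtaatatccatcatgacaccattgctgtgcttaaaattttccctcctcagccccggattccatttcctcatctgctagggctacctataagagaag
Ccl6: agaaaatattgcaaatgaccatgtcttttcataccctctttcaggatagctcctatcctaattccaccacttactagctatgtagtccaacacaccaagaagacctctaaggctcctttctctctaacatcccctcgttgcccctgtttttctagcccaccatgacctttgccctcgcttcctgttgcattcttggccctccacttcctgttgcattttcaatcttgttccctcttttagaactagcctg
Ccl9: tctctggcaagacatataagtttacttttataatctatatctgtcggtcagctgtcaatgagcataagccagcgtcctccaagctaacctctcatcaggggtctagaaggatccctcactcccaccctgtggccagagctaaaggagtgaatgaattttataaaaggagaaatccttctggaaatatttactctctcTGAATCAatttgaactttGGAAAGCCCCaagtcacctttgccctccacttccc
Cxcl2: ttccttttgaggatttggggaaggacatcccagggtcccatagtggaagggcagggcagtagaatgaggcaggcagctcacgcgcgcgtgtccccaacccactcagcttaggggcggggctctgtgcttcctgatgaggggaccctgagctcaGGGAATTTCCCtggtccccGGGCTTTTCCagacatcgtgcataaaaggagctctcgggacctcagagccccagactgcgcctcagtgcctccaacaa

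Cxcl2 held kappa B matches at 97 to 88 bases before the start on the plus strand and at 96 to 87 on the minus strand, which overlap, and another at 78 to 69. Ccl9 held an AP-1 match at 53 to 47 bases before the start and a kappa B match at 35 to 26, and the windows of Ccl3 and Ccl6 held neither. The RefSeq table matched 7 of the 10 genes (not Ccl2, Ccl4 and Ccl7). Of those 7, 4 held a kappa B match (Cxcl2, Ccl9, Ccl1 and Ccl22) and 1 an AP-1 match, against 45.8% and 6.7% of 32851 promoter windows of the same length. A kappa B match of these letters is therefore common, and a match is a description of the sequence, not a site of binding.

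The deposited values are counts of reads per gene, here given as CPM, which are counts relative to the library total after scaling by TMM factors. Total counts ran from 17706764 to 27068993 in untreated resident, from 13068078 to 25287381 in MC903 resident and from 19978811 to 31781926 in bone marrow libraries. A gene with no count in a library may still have been present at up to 3 counts, which is 0.104 to 0.193 CPM across the libraries, and this floor covers counting error only, while the 95% intervals of the fold changes include the spread between libraries. All 9 mast cell markers (Kit, Fcer1a, Ms4a2, Cpa3, Hdc, Tpsb2, Cma1, Mcpt4 and Gata2) had counts in every library. Libraries 8, 7 and 15 had the most genes with a count (35246, 34560 and 32814, against 16025 to 28790 in the rest). Library 15 stood apart from the other bone marrow libraries. The summed level of 9 macrophage and monocyte markers was 10903 CPM there, against 80.0 to 346 CPM in the other 3 and 48.9 to 173 CPM in the resident libraries. The sum of 9 dendritic and Langerhans cell markers was 3662 CPM there, against 19.5 to 81.0 CPM in the other 3, and nearly all of it came from Cd74 and H2-Ab1, class II genes that macrophages also express. The other 7 of that list were at no more than 2.63 CPM each in library 15, Zbtb46 was lower there (0.707 CPM) than in another bone marrow library (15.7 CPM), and Clec9a and Ccr7 were at 0 in all 4. Mitochondrial transcripts, a sign of RNA quality, took 1.22% to 1.70% of counts in untreated resident, 2.39% to 3.96% in MC903 resident and 2.14% to 4.24% in bone marrow libraries, so that they separated treated from untreated mice. Their part in the differences below was not tested. Results on bone marrow cells are given with and without it. In such pools, fewer cells that make a transcript and less transcript in each cell cannot be told apart.

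Ccl7 and Ccl2 were the most abundant of the 10 transcripts in resident skin mast cells, and Ccl7 fell steeply in the bone marrow cells. Ccl7 encodes the monocyte chemoattractant MCP-3. It stood at 21299, 22512, 22612, 21989 and 34644 CPM in untreated resident libraries 1 to 5, at 11668, 9350, 12660, 14185 and 18778 CPM in MC903 resident libraries 6 to 10, and at 2816, 1880, 1459 and 4534 CPM in bone marrow libraries 11, 13, 14 and 15. The 3 groups did not overlap, library 5 was the highest of all, and library 15 was the highest of its group. Ccl7 alone took 2.11% to 3.02% of all counts of an untreated resident library and ranked between 1 and 3 among all genes, beside the mast cell proteases Cma1 and, in libraries 3 to 5, Cpa3, and the protease inhibitor gene Serpinb1a in libraries 1 and 2. In library 2 it was the gene with the most counts. It took 1.16% to 1.77% of counts in MC903 resident cells (rank 6 to 8) and 0.139% to 0.449% in bone marrow cells (rank 20 to 62).

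Ccl2, which encodes the monocyte chemoattractant MCP-1, was less abundant and varied less. It was at 2781, 2927, 2764, 2773 and 3806 CPM in libraries 1 to 5, at 1500, 1448, 1813, 2440 and 2503 CPM in libraries 6 to 10, and at 1397, 1628, 1637 and 2439 CPM in libraries 11, 13, 14 and 15. Untreated resident libraries lay above all others, while the MC903 resident and bone marrow libraries overlapped. Because the genes differ in annotated length, levels of different genes are compared per kilobase of the deposited gene length. That length was 2068 bases for Cxcl2, the same as its whole span, and 2369 for Ccl1, against 660 for Ccl4. It can exceed the length of the transcript made, so the levels per kilobase of such genes may be too low. On that scale (CPM per kilobase), the ratio of the Ccl7 level to the Ccl2 level was 11.5 ± 0.840 (SD, n = 5) in untreated resident, 9.81 ± 1.13 (SD, n = 5) in MC903 resident and 2.10 ± 0.771 (SD, n = 4) in bone marrow libraries. The bone marrow ratios, 1.27 to 2.86, lay below the 8.26 to 12.9 of the resident libraries. No test was run on the ratio.

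**Figure D1:**
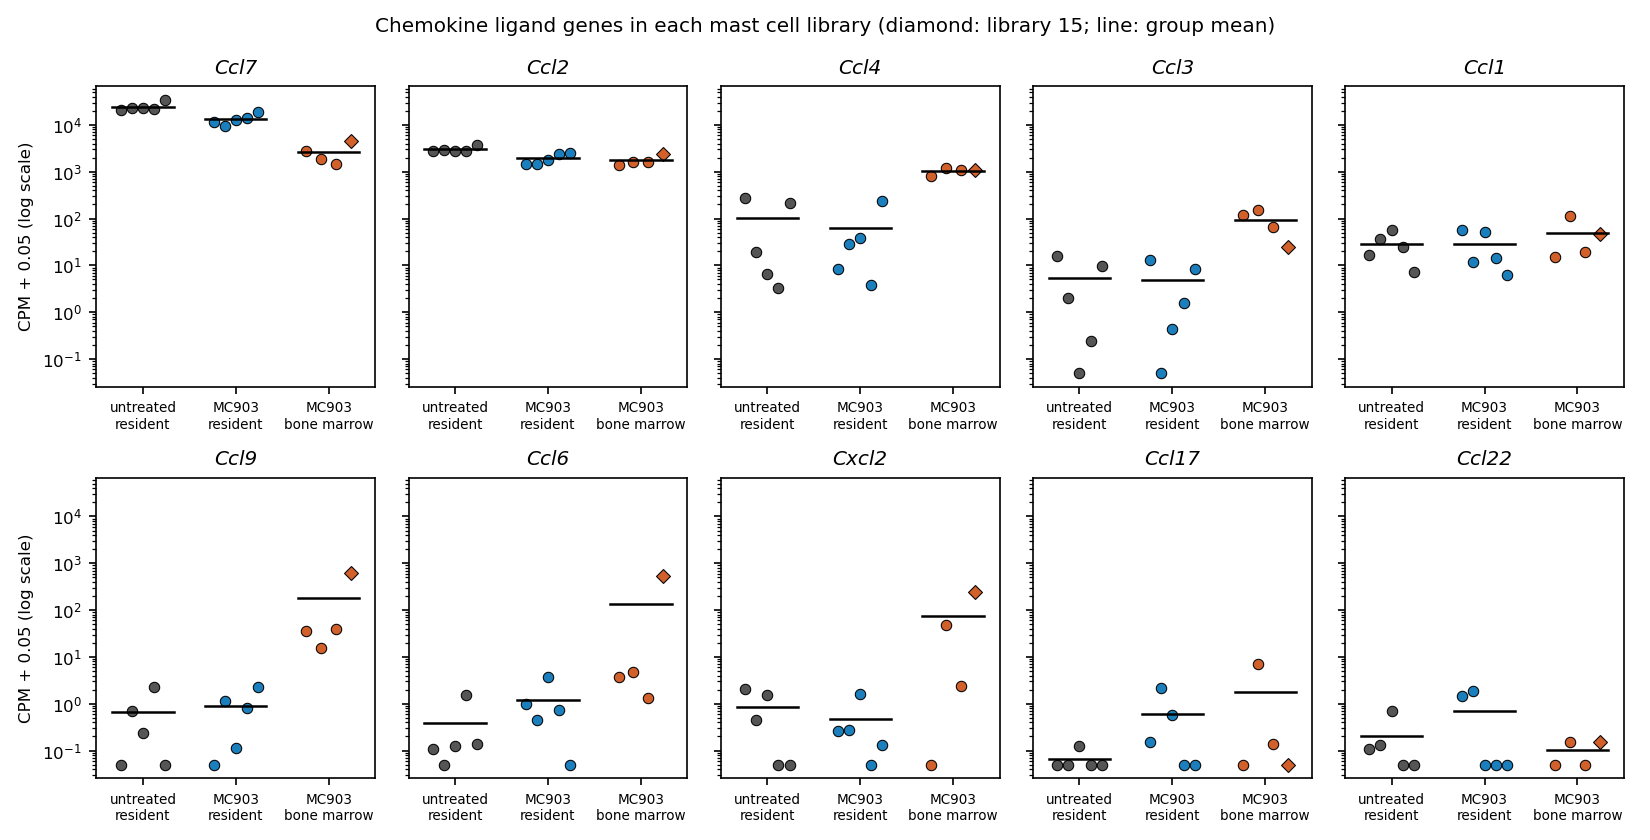
Each panel shows 1 chemokine gene. The y axis is CPM plus 0.05 on a log scale, each point is a library, the short line is the group mean, and the diamond is library 15. Ccl7 steps down from the untreated to the MC903 resident to the bone marrow libraries, Ccl4 and Ccl3 sit highest in all 4 bone marrow libraries, and Ccl6 has a single high point at 536 CPM.

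Ccl4 and Ccl3, which encode the macrophage inflammatory proteins MIP-1β and MIP-1α, were highest in the bone marrow cells. Ccl4 was at 270, 19.4, 6.58, 3.21 and 210 CPM in libraries 1 to 5, at 8.51, 28.5, 38.1, 3.78 and 232 CPM in libraries 6 to 10, and at 810, 1184, 1097 and 1069 CPM in libraries 11, 13, 14 and 15. The bone marrow libraries were alike and lay above all resident libraries. The resident libraries of either group were spread over more than an order of magnitude, with libraries 1, 5 and 10 far above the rest. Ccl3 was at 15.6, 1.96, 0, 0.189 and 9.52 CPM in libraries 1 to 5, at 13.3, 0, 0.386, 1.55 and 8.40 CPM in libraries 6 to 10, and at 121, 155, 67.1 and 24.5 CPM in libraries 11, 13, 14 and 15. Its bone marrow values again lay above all resident ones, and libraries 1, 5 and 10 were again high among the resident cells, with library 6. Library 15, the highest bone marrow library for Ccl2, Ccl6, Ccl7, Ccl9 and Cxcl2, was the lowest for Ccl3.

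Ccl9, Ccl6 and Cxcl2 were near the floor in resident cells. Ccl9, the chemokine also called MIP-1γ, was at 0, 0.653, 0.187, 2.27 and 0 CPM in libraries 1 to 5, at 0, 1.10, 0.0643, 0.775 and 2.27 CPM in libraries 6 to 10, and at 35.1, 15.5, 38.4 and 623 CPM in libraries 11, 13, 14 and 15. All 4 bone marrow libraries lay above all resident ones, and library 15 was far above the other 3. Ccl6, whose product is also called C10, was at 0.0564, 0, 0.0748, 1.47 and 0.0890 CPM, at 0.934, 0.404, 3.60, 0.678 and 0 CPM, and at 3.67, 4.71, 1.28 and 536 CPM in the same order. Its bone marrow values overlapped those of both resident groups, since library 14 lay below MC903 resident library 8 and untreated resident library 4, and only library 15 was far above them. Cxcl2, the neutrophil attractant MIP-2, was at 2.03, 0.408, 1.496, 0 and 0 CPM, at 0.207, 0.231, 1.54, 0 and 0.0840 CPM, and at 0, 47.5, 2.38 and 247 CPM. Only libraries 13 and 15 were above the resident range by more than a few CPM, and library 11 held no count.

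Ccl1, Ccl17 and Ccl22 did not separate the groups. Ccl1, the ligand of Ccr8, was at 16.4, 36.8, 57.6, 25.1 and 7.16 CPM in libraries 1 to 5, at 57.6, 11.5, 51.8, 14.6 and 6.22 CPM in libraries 6 to 10, and at 14.9, 112, 19.1 and 46.2 CPM in libraries 11, 13, 14 and 15. All groups overlapped. Ccl17 (TARC), a ligand with a known part in atopic dermatitis, had at most 2 counts in any untreated resident library, and its highest values were 2.14 CPM (37 counts) in MC903 resident library 7 and 6.998 CPM (202 counts) in bone marrow library 13. Ccl22 (MDC) had its highest values in MC903 resident libraries 7 and 6, at 1.79 and 1.40 CPM (31 and 27 counts), and at most 3 counts in any bone marrow library. Neither Ccl17 nor Ccl22 passed the filter on low counts, so 8 of the 10 genes were tested, and no fold is given for these genes.

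Per kilobase, the order of mean levels in untreated resident cells was Ccl7 (30726 CPM per kilobase), Ccl2 (2645), Ccl4 (154), Ccl1 (12.1) and Ccl3 (7.12), and the other 5 were at or below 0.381. The MC903 resident cells had the same leading 5, at 16639, 1705, 94.1, 12.0 and 6.17 CPM per kilobase. In both resident groups Ccl7 lay above Ccl2 and Ccl2 above Ccl4 without overlap, and every later pair of neighbours in the order overlapped. In bone marrow cells Ccl7 (3336 CPM per kilobase) was followed by Ccl4 (1576) and Ccl2 (1560), which did not differ beyond their spread, each being the higher in 2 of 4 libraries. Ccl3 (120), Ccl6 (75.9), Ccl9 (58.5), Cxcl2 (35.9), Ccl1 (20.3), Ccl17 (3.44) and Ccl22 (0.0220) followed, with overlap between neighbours. The means of Ccl6, Ccl9 and Cxcl2 rest on library 15. As shares of the 10 genes' summed CPM per kilobase, Ccl7 made up 90.2% to 92.2% in untreated resident, 89.1% to 91.4% in MC903 resident and 36.2% to 57.2% in bone marrow libraries. Ccl4 made up 16.0% to 33.0% in bone marrow libraries and at most 1.39% in any resident library.

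**Figure D2:**
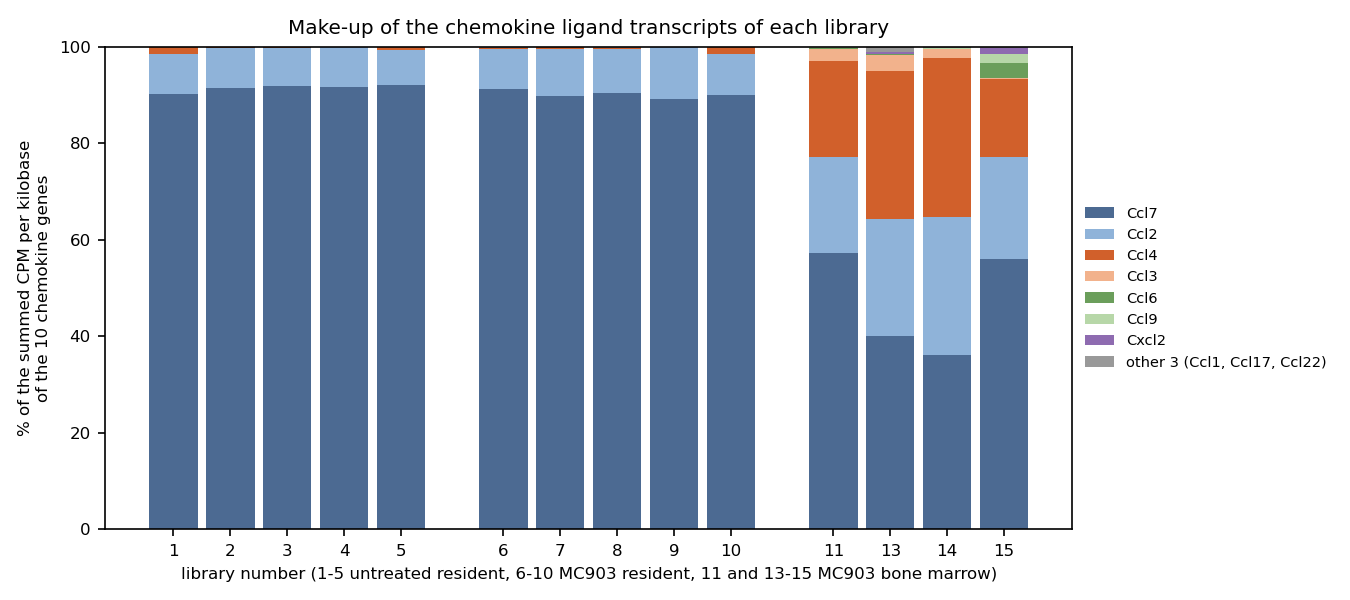
Each bar is a library, and its colours show the share of each gene in the summed CPM per kilobase of the 10 chemokine genes, in percent. Ccl7 fills about the same share in all 10 resident libraries, at least 89.1%, while Ccl4 and Ccl2 take larger shares in the bone marrow libraries.

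The first comparison asked how MC903 treatment changed the resident cells. None of the 8 tested chemokine genes was called in MC903 resident against untreated resident cells at an adjusted p-value under 0.05 (edgeR quasi-likelihood test, Benjamini-Hochberg adjustment over 21014 genes), against 2.25% of all genes (0.571% higher and 1.68% lower). Ccl7 differed by a log2 fold change of -0.88 ± 0.248 (SE), with a 95% interval of -1.40 to -0.37 and an adjusted p of 0.0682. Ccl2 differed by -0.63 ± 0.189 (SE), with an interval of -1.03 to -0.24 and an adjusted p of 0.0900. These were the 2 genes with an unadjusted p under 0.05, which 12.6% of all genes had, and the 2 whose groups did not overlap, which was so for 5.33% of all genes tested. Both lay lower in all 5 MC903 resident libraries than in any untreated one. The other 6 had adjusted p-values from 0.826 to 0.997 and wide intervals, for Ccl4 from -3.50 to 2.08 and for Ccl3 from -3.35 to 2.96 on the log2 scale, so that large differences in either direction were not detectable at this spread. The median log2 fold change of the 8 genes was -0.41, against 0.24 over all genes.

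The calls on Ccl7 and Ccl2 depended on the model. Ccl7 passed with limma's voomWithQualityWeights (adjusted p = 0.0213) and in a fit of these 2 groups alone (adjusted p = 0.0147). Ccl2 passed with limma (adjusted p = 0.00539) and when genes with low counts were kept in (adjusted p = 0.000111). With DESeq2 size factors in edgeR the log2 differences were -0.76 for Ccl7 and -0.51 for Ccl2, and under that scaling the median of all genes moved from 0.24 to 0.40. The DESeq2 test called none of the genes, and it gave no adjusted p for Ccl6 and Ccl9.

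The second comparison set bone marrow against resident mast cells within MC903-treated mice. Ccl7 fell 4.99-fold, being at 13328 ± 3517 CPM (SD, n = 5) in the resident and at 2672 ± 1365 CPM (SD, n = 4) in the bone marrow cells. On the log2 scale the change was -2.32 ± 0.281 (SE; adjusted p = 5.87e-05, edgeR). Ccl9 rose, with means of 0.841 ± 0.924 CPM (SD, n = 5) in the resident and 178 ± 297 CPM (SD, n = 4) in the bone marrow cells. Its log2 change was 7.68 ± 1.74 (SE; adjusted p = 0.0449). So 2 of the 8 tested genes were called, 1 in each direction, against 2.27% of all genes (1.32% higher and 0.952% lower). For Ccl2 the test found no difference, with a log2 difference of -0.13 and a 95% interval of -0.54 to 0.29.

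Ccl3, Ccl4, Ccl6 and Cxcl2 had higher means in the bone marrow cells and did not pass the test. The log2 difference was 4.27 ± 1.66 (SE) for Ccl3 (edgeR adjusted p = 0.209) and 4.06 ± 1.46 (SE) for Ccl4 (adjusted p = 0.176), although neither gene overlapped between the groups. Ccl7 and Ccl9 did not overlap either, which makes 4 of 8 genes, against 8.29% of all genes tested. For Ccl6 the difference was 6.95 ± 2.10 (SE, adjusted p = 0.123), for Cxcl2 7.53 ± 2.22 (SE, adjusted p = 0.116) and for Ccl1 0.77 ± 0.715 (SE, adjusted p = 0.625). Including the 2 called genes, 6 of the 8 had an unadjusted p under 0.05, against 17.7% of all genes. The median log2 fold change of the 8 genes was 4.17, against -0.28 over all genes.

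Leaving out library 15 kept both calls of this comparison and lowered the Ccl9 difference. Ccl7 was then lower by a log2 fold change of -2.69 (adjusted p = 3.14e-07), and Ccl9 was higher by 5.13 ± 1.34 (SE, adjusted p = 0.0371). All genes called were then 2.89% of 24370 (1.35% higher and 1.54% lower), and the same 4 chemokine genes, Ccl3, Ccl4, Ccl7 and Ccl9, did not overlap between the groups, against 14.4% of all genes. The Ccl6 difference was 1.53 (adjusted p = 0.587) in place of 6.95 and that of Cxcl2 5.34 (adjusted p = 0.103) in place of 7.53, while Ccl3 was at 4.60 (adjusted p = 0.114) and Ccl4 at 4.06 (adjusted p = 0.116). The call on Ccl9 was lost in the 8 fits that left out 1 of the other libraries (adjusted p up to 0.0977) and in 4 of 7 other alternatives (adjusted p up to 0.184). Ccl4 passed with DESeq2 (adjusted p = 0.0103) and limma (adjusted p = 0.00655), Ccl3 with limma (adjusted p = 0.0118) and Cxcl2 with DESeq2 (adjusted p = 0.00961).

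The third comparison set bone marrow cells of treated mice against resident cells of untreated mice, and shares its groups with the other two. Ccl7 fell 9.21-fold below its mean of 24611 ± 5633 CPM (SD, n = 5) in untreated cells, which on the log2 scale was -3.20 ± 0.293 (SE; adjusted p = 9.06e-07, edgeR). Ccl2 fell 1.70-fold, with means of 3010 ± 449.9 CPM (SD, n = 5) in untreated and 1775 ± 456 CPM (SD, n = 4) in bone marrow cells and a log2 change of -0.76 ± 0.202 (SE, adjusted p = 0.0240). Ccl9, at 0.622 ± 0.959 CPM (SD, n = 5) in untreated cells, rose by 8.15 ± 1.78 on the log2 scale (SE, adjusted p = 0.0170). Ccl6, at 0.337 ± 0.632 CPM (SD, n = 5) in untreated and 136 ± 266 CPM (SD, n = 4) in bone marrow cells, rose by 8.66 ± 2.28 (SE, adjusted p = 0.0430), and that call was lost without library 15 (3.24, adjusted p = 0.221). The 4 called genes, 2 in each direction, stand against 6.87% of all genes (3.49% higher and 3.37% lower).

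Ccl3 (log2 difference 4.08, adjusted p = 0.175), Ccl4 (3.35, adjusted p = 0.197), Cxcl2 (6.56, adjusted p = 0.0938) and Ccl1 (0.75, adjusted p = 0.617) did not pass. Ccl4 passed with DESeq2 (adjusted p = 0.0256) and limma (adjusted p = 0.00135), Ccl3 with limma (adjusted p = 0.00408) and Cxcl2 with DESeq2 (adjusted p = 0.0121). Ccl2, Ccl3, Ccl4, Ccl7 and Ccl9 did not overlap between the groups, 5 of 8 against 10.4% of all genes tested, and 7 of 8 had an unadjusted p under 0.05, against 21.3%. The median log2 fold change of the 8 genes was 3.71, against -0.14 over all genes. Without library 15, Ccl7 was at -3.58 (adjusted p = 5.33e-09), Ccl2 at -0.95 (adjusted p = 0.00292) and Ccl9 at 5.56 (adjusted p = 0.0136), so that 3 genes were called, beside 6.36% of all genes (2.95% higher and 3.41% lower). The same 5 did not overlap then, against 13.8% of all genes. The call on Ccl2 was lost when library 5, 11, 13 or 14 was left out (adjusted p 0.0507, 0.0669, 0.0577 and 0.0502) and the call on Ccl6 when library 1, 2, 3, 5 or 15 was (adjusted p up to 0.221). Without library 15 all 10 genes passed the filter on low counts, and neither Ccl17 (adjusted p = 0.515 against MC903 resident and 0.101 against untreated resident cells) nor Ccl22 (0.306 and 0.606) was called.

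**Figure D3:**
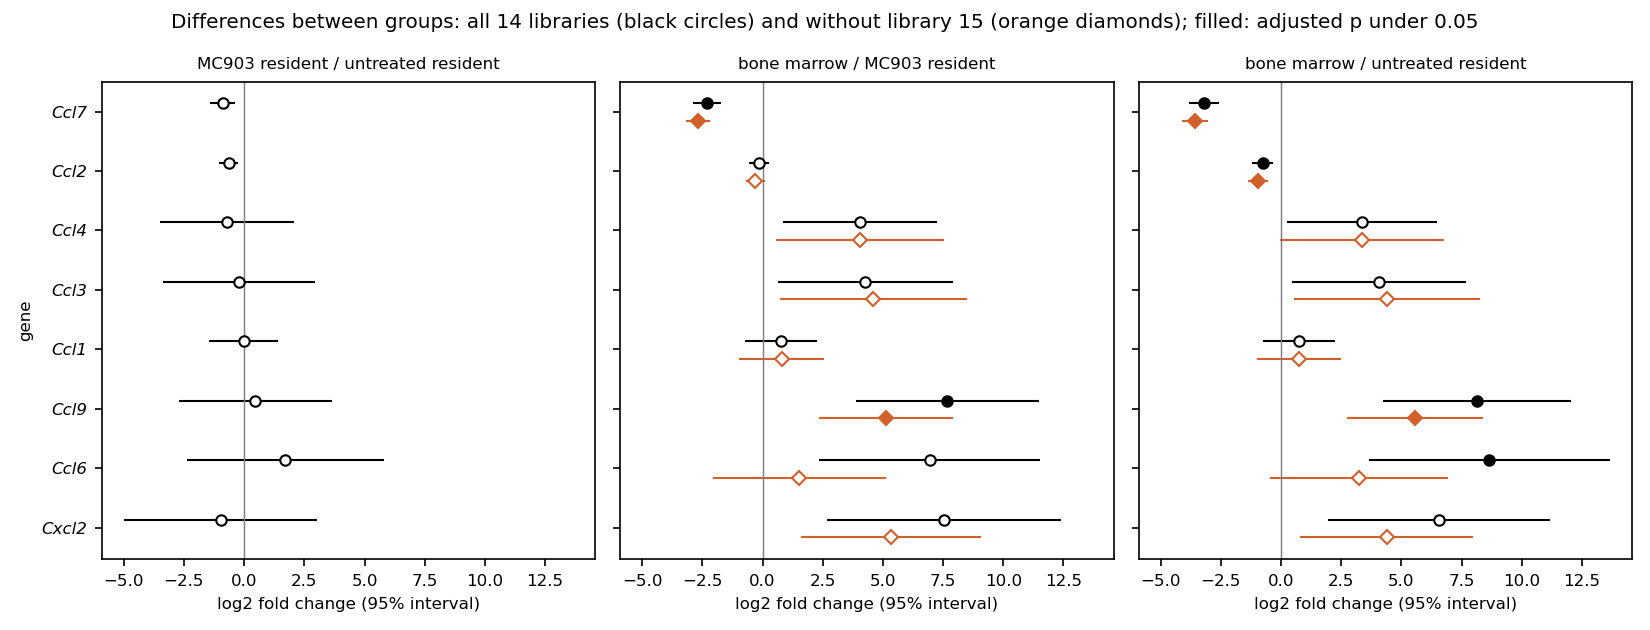
Log2 fold changes of the 8 tested genes in the 3 comparisons, with 95% intervals. Black circles are fits of all 14 libraries, orange diamonds fits without library 15, and filled symbols have an edgeR adjusted p under 0.05. Ccl7 and Ccl2 have narrow intervals and the other genes wide ones, and the Ccl6 value drops from 8.66 to 3.24 against untreated resident cells without library 15.

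The high values of Ccl6, Ccl9 and Cxcl2 in library 15 stood beside markers of other myeloid cells. Of 9 macrophage and monocyte markers, all 9 had counts in library 15, with Lyz2 at 4817 CPM, C1qb at 2252 CPM, Csf1r at 1100 CPM and Adgre1 at 341 CPM. In the other 3 bone marrow libraries the highest values were 256 CPM for Lyz2, 3.92 CPM for C1qb, 10.3 CPM for Csf1r and 0.510 CPM for Adgre1. Cd74 stood at 2712 CPM and H2-Ab1 at 945 CPM in library 15, and its neutrophil markers summed to 75.0 CPM, nearly all from Csf3r, while S100a9, Retnlg and Ngp were at 0 in every bone marrow library. Its mast cell markers summed to 102358 CPM, the lowest of the 4 bone marrow libraries and below all 5 MC903 resident libraries (104725 to 159329 CPM), while untreated resident libraries ran from 84555 to 110035 CPM. Of the 7 macrophage markers tested, 1 was called against MC903 resident cells, where 2.27% of all genes were. This was Cd68, a lysosomal protein gene, which rose in the bone marrow cells with and without library 15 (edgeR adjusted p = 0.0392 and 0.0159). The part of these markers in the chemokine values of library 15 was not tested. In bone marrow libraries 13, 11, 14 and 15, Ccl9 was at 15.5, 35.1, 38.4 and 623 CPM. Their macrophage markers summed to 80.0, 172, 346 and 10903 CPM, which is the same order. Ccl4 differed little between library 15 (1069 CPM) and the other 3 (810 to 1184 CPM).

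**Figure D4:**
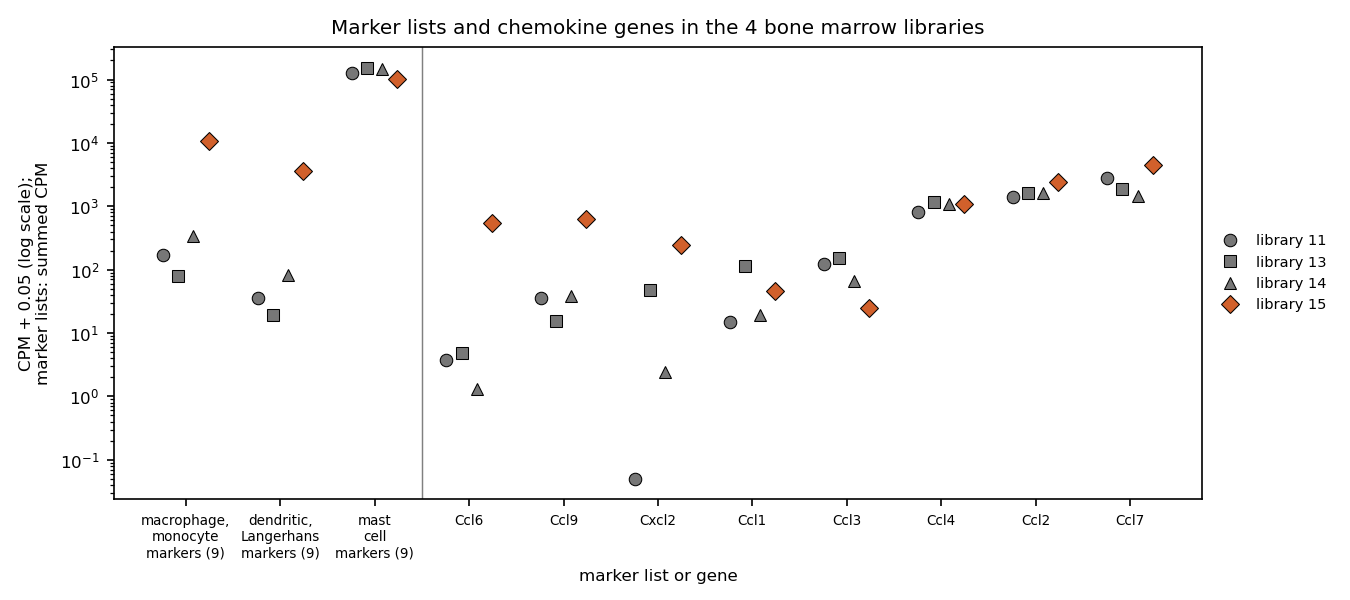
The 4 bone marrow libraries, with the summed CPM of 3 marker lists to the left of the line and the CPM of 8 chemokine genes to its right (plus 0.05, log scale). Library 15, the diamond, stands far above the others for macrophage markers, for the dendritic list (mostly Cd74 and H2-Ab1), and for Ccl6 and Ccl9, and lies within their range for Ccl4.

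Of the remaining cell types, 1 of 3 endothelial markers was called against untreated resident cells, where 6.87% of all genes were. Of 3 basophil markers none was called with all libraries. Without library 15, 1 was called against both MC903 and untreated resident cells, where 2.89% and 6.36% of all genes were. Mcpt8, a basophil protease gene, was at 9.50 to 37.2 CPM in untreated resident and 3.15 to 57.0 CPM in MC903 resident libraries, and at 976, 205, 83.2 and 46.5 CPM in bone marrow libraries 11, 13, 14 and 15. With all libraries it did not pass (log2 differences of 4.09 and 3.81 against MC903 and untreated resident cells, edgeR adjusted p = 0.0770 and 0.0502). Without library 15 it rose by 4.47 and 4.19 (adjusted p = 0.0471 and 0.0354). Pecam1, an adhesion molecule gene of endothelium and of several leukocytes, was at 35.8, 39.7, 7.44 and 9.75 CPM in libraries 11, 13, 14 and 15 and at no more than 6.73 CPM in any resident library. It rose against untreated resident cells by 4.73 on the log2 scale (edgeR adjusted p = 0.00483, and 0.00258 without library 15), and against MC903 resident cells it did not pass (adjusted p = 0.173). The other endothelial markers, Cdh5 and Vwf, were at no more than 0.0835 and 3.79 CPM in bone marrow libraries. The part of these genes in the chemokine differences was not tested. The summed level reached 83.8 CPM for 7 T cell markers, 5.23 CPM for 4 eosinophil, 7.33 CPM for 5 keratinocyte, 30.6 CPM for 5 fibroblast and 39.9 CPM for 3 endothelial markers in any library. The 3 basophil markers summed to 480 to 735 CPM in untreated resident, 433 to 663 CPM in MC903 resident and 269.7 to 1506 CPM in bone marrow libraries, lowest in library 15 and highest in library 11, and most of the resident sums came from Cd200r3, with means of 545, 507 and 465 CPM in the 3 groups in that order. The third, Prss34, was at 0.104 to 42.0 CPM in MC903 resident and 0 to 15.8 CPM in bone marrow libraries, at 0 in library 15. Neither of these genes was called.

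Of the 10 genes, Ccl3 with Ccl4 and Ccl2 with Ccl7, which are neighbours, had the highest correlations with and without library 15. Pearson's r of log2 CPM over the 14 libraries was 0.795 for Ccl3 with Ccl4 (0.791 without library 15) and 0.729 for Ccl2 with Ccl7 (0.777). The neighbours Ccl6 and Ccl9 followed at 0.725, but at 0.478 without library 15, below Ccl1 with Cxcl2 and Ccl17 with Cxcl2 (both 0.669). The neighbours Ccl17 and Ccl22 were at 0.399, below Ccl6 with Cxcl2 (0.649) and Ccl1 with Cxcl2 (0.624). Ccl7 ran against Ccl9 (-0.757) and Ccl4 (-0.647). These values describe libraries that fall into 3 groups, so differences between the groups enter every one of them. Among 7942 well-measured genes, those most like Ccl7 over the 14 libraries were Pmp22, a myelin protein (r = 0.978), Sgcd, a sarcoglycan (0.976), and Bex4 (0.972). Ccl2 was most like Blvra, a biliverdin reductase (0.939), Oser1 (0.930) and Tsc22d3, a glucocorticoid-induced gene (0.924). Ccl4 was most like Ccnd2, which encodes cyclin D2 (0.888), Mc5r, a melanocortin receptor (0.868), and Cpt1a, an enzyme of fatty acid oxidation (0.867).

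Ccl3 was most like Ywhae, which encodes a 14-3-3 protein (0.893), Hs3st1, a heparan sulfate sulfotransferase (0.881), and Csrp3 (0.875). Ccl9 was most like S100a4 (0.920), Ncf1, a subunit of the phagocyte NADPH oxidase (0.910), and Man2b1, a lysosomal mannosidase (0.893). Ccl6 was most like Ctsh, which encodes cathepsin H (0.874, and 0.721 without library 15), Pepd (0.851 and 0.631) and Sdc4 (0.841 and 0.510). Cxcl2 was most like Fcgrt, the neonatal Fc receptor (0.864, and 0.761 without library 15), and Ms4a4a (0.862 and 0.729). Ccl1 had the weakest likeness, to Iqsec1 (0.803), Fam118b (0.741) and Rad54l (0.728).

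The other chemokine ligands added little in resident cells. Of 37 ligands in all, 4 had a mean of at least 10 CPM in untreated and in MC903 resident cells, Ccl1, Ccl2, Ccl4 and Ccl7 in both. In bone marrow cells 14 did, of which 8 were among the 10 genes described and the rest were Ccl8, Ccl12, Cxcl1, Cxcl3, Cxcl16 and Pf4. Without library 15 the number was 8, which were Cxcl3 and 7 of the 10 genes described (not Ccl6, Ccl17 and Ccl22). Of the 27 ligands outside the 10, 12 were tested. None was called between the 2 groups of MC903-treated mice (5 at an unadjusted p under 0.05, against 17.7% of all genes, and none with DESeq2 or limma) or between the resident groups (1 at an unadjusted p under 0.05, against 12.6%, none with DESeq2, and 2 higher with limma, against 3.14%). In edgeR 2 rose in bone marrow against untreated resident cells, against 3.49% of all genes, Ccl8 (edgeR adjusted p = 0.0251) and Cxcl16 (adjusted p = 0.0206). Neither was called without library 15 (adjusted p = 0.144 and 0.150), and DESeq2 called none of the 12. Ccl8, a monocyte chemoattractant, was at 2973 CPM in library 15 and at no more than 2.09 CPM in the other 3, and Pf4, Cxcl16, Ccl12 and Cxcl1 were at 928, 355, 172 and 159 CPM there. Cxcl3, which like Cxcl2 binds Cxcr2, was instead at 0.354 CPM in library 15 and reached 60.0 CPM in 1 of the other 3.

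Of 23 chemokine receptors, 12 were tested. Between the resident groups none was called, with 5 at an unadjusted p under 0.05 (12.6% of all genes). DESeq2 called 3 higher and 1 lower there, limma 1 higher, and without library 15 edgeR called Ackr1 (adjusted p = 0.0298) and Cx3cr1 (0.0307) higher and Ccr1 (0.0371) lower. Of all genes with an adjusted p, DESeq2 called 3.14% higher and 2.47% lower, limma 3.14% and 3.32%, and edgeR without library 15 0.624% and 1.81%. Ackr1, an atypical receptor that binds many chemokines, Ccl2 and Ccl7 among them, without signalling through G proteins, fell in bone marrow cells. It was at 26.3 ± 11.9 CPM (SD, n = 5) in untreated resident, 73.5 ± 12.9 CPM (SD, n = 5) in MC903 resident, and 6.16 ± 4.13 CPM (SD, n = 4) in bone marrow cells. The change on the log2 scale was -3.57 ± 0.480 (SE, adjusted p = 0.000189 in edgeR) against MC903 resident and -2.09 ± 0.448 (SE, adjusted p = 0.00497) against untreated resident cells. Without library 15 the changes were -3.34 and -1.87 (edgeR adjusted p = 0.000234 and 0.0122). With limma no receptor was called lower against untreated resident cells. In both bone marrow comparisons edgeR with all libraries called 1 of the 12 receptors higher and 1 lower. Of all genes 1.32% and 3.49% rose and 0.952% and 3.37% fell. Ccr1, the receptor of Ccl6 and Ccl9, rose in bone marrow against MC903 resident cells by 6.82 ± 1.46 on the log2 scale (SE, adjusted p = 0.0304), and by 4.93 without library 15 (adjusted p = 0.0114). It was at 22.1, 5.40, 45.8 and 289 CPM in bone marrow libraries 11, 13, 14 and 15, and at 0 to 2.83 CPM in MC903 resident libraries. Untreated resident cells held Ccr1 at 11.3 ± 6.66 CPM (SD, n = 5), and there the difference did not pass (adjusted p = 0.174). Cx3cr1, the receptor of Cx3cl1, was at 0 in all untreated resident libraries and at 2.98 to 25.5 CPM in bone marrow libraries (edgeR adjusted p = 0.00425, and 0.00193 without library 15).

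Of 14 genes that respond to NF-kappa B, all tested, 8 fell in MC903 resident against untreated resident cells, against 1.68% of all genes, and 1, Bcl3, rose (edgeR adjusted p = 0.0499, and 0.0568 without library 15), against 0.571%, with a median log2 fold change of -1.24 against 0.24 over all genes. The same groups were separated by their mitochondrial share (1.22% to 1.70% against 2.39% to 3.96% of counts). Under the 2 other scalings 7 fell and 1 rose. Tnf, the cytokine gene, was at 499 ± 105 CPM (SD, n = 5) in untreated and 126 ± 28.2 CPM (SD, n = 5) in treated resident cells, and fell by 1.99 ± 0.207 on the log2 scale (SE, adjusted p = 1.28e-05). Nfkbiz, Nfkb1, Nfkb2 and Rel, which encode subunits or regulators of NF-kappa B, fell by 1.22, 1.04, 1.38 and 1.30 on the log2 scale (adjusted p = 0.00164, 0.00227, 0.00342 and 0.00716). In bone marrow against MC903 resident cells 3 of the 14 rose, Cd83, Tnfaip3 and Nfkbie (adjusted p = 0.0168, 0.0260 and 0.0293), and none fell, against 1.32% and 0.952% of all genes. Cd83 was at 512 CPM in library 15 and at no more than 28.9 CPM in the other bone marrow libraries. Without library 15, 4 rose (Nfkbia added, edgeR adjusted p = 0.0313) and none fell, against 1.35% and 1.54% of all genes. With all libraries, 2 rose against untreated resident cells, Cd83 and Bcl3, and 4 fell, Tnf, Nfkbiz, Rel and Nfkb2. Of all genes 3.49% rose and 3.37% fell there. Without library 15, 3 rose (Nfkbie added, edgeR adjusted p = 0.0130) and the same 4 fell, against 2.95% and 3.41% of all genes. The mean of Tnf among the bone marrow libraries was 162 ± 38.2 CPM (SD, n = 4), below all untreated resident libraries (391 to 637 CPM), whereas Ccl4 and Ccl3 lay above them.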

How the data were processed

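RNA was sequenced from 14 libraries of up to 100 sorted mast cells each, made with SMART-Seq HT and Nextera XT per the labels' protocols. The deposited table holds raw read counts per gene, without molecular identifiers, so reads are not independent molecules. The submitters' processing notes name STAR, featureCounts and mm10, and the strand setting is not given in the sources used here. Of 55487 gene identifiers, 55094 matched GENCODE M21 on GRCm38 with the same version, start and end, and 55394 had a symbol.

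Groups were taken from the sample titles. Low counts were removed by edgeR's filterByExpr, given the groups, at a minimum count of 10 and a minimum total of 15. This left 21014 genes, and libraries were scaled by TMM. The quasi-likelihood test of edgeR 4.0.16 (robust glmQLFit, then glmQLFTest, R 4.3.3) was run on all 3 groups in 1 fit without covariates. Genes with a Benjamini-Hochberg adjusted p under 0.05 were called. The common dispersion was 1.33. Standard errors were derived from the F statistic. The steps were tested on simulated counts. Likeness is Pearson's r of log2 CPM (prior count 2) among named genes averaging 10 CPM or more.

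The 10 genes, the gene lists (other ligands, receptors, NF-kappa B response, immediate early genes and markers of 10 cell types) and the tests were chosen with earlier results of these data known. By the naming rule, all 10 genes are given with every library, and of each list at most 5 called genes per comparison in order of adjusted p, the leading genes by level, and for likeness the 3 highest correlations, of which 1 is not reported here. Beyond that rule, 2 genes of the NF-kappa B list were named. They were Bcl3 between the resident groups and Cd83 in bone marrow against untreated resident cells. Values of marker genes in library 15, Mcpt8, Pecam1 and Cd68 were picked after they were seen. Alternatives were DESeq2 size factors, TMM from abundant genes (mean 10 CPM or more), no filter, DESeq2 1.42.0, limma 3.58.1 with voomWithQualityWeights, the 2 groups alone, and an added minimum absolute log2 fold change of 1. Each library of the 2 groups compared was also left out in turn. Libraries 7, 8 and 15 were left out together, a choice made after seeing the data.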

Additional observations from a re-analysis of the deposited data

Results flagged for a closer look

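In 13 of 30 pairs of a gene and a group, 1 library passed a test for values far from the rest of its group, by the gap to its neighbour over the range of the group (Dixon's test at the 95% level). Chance flags about 5% of groups of normally spread values. In bone marrow cells these were Ccl6 (536 CPM) and Ccl9 (623 CPM) in library 15, whose next highest values were 4.71 and 38.4 CPM, and Ccl17 in library 13 (6.998 CPM). In untreated resident cells, library 5 stood out for Ccl7 (34644 CPM) and Ccl2 (3806 CPM), library 4 for Ccl6 (1.47 CPM) and Ccl9 (2.27 CPM), and library 3 for Ccl22 (0.636 CPM). Ccl17 in untreated resident library 3 (0.0748 CPM) passed by arithmetic alone and cannot be said to lie apart, as it had 2 counts there, fewer than the floor of 3 counts, and 0 in the other 4. In MC903 resident cells, library 10 stood out for Ccl4 (232 CPM), library 8 for Ccl6 (3.60 CPM) and Cxcl2 (1.54 CPM), and library 7 for Ccl17 (2.14 CPM). In each case the library was the highest of its group, and 8 of the 13 values were below 10 CPM.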

How the results depend on the processing

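No paired analysis was possible because the library numbers run on across the groups and no number is shared. Of 409 alternative values of the 24 single-gene differences, 350 kept direction and call, 25 lost the call, 12 gained it and 22 changed sign. Ccl7 was called lower in bone marrow cells under every alternative run, in both comparisons, and Ccl9 was called higher than in untreated resident cells in all 16. For MC903 against untreated resident cells, the number of chemokine genes called was 0, and 1 without the filter, 2 with limma and 1 with the 2 groups alone (0 to 0 leaving out a library of either group). All genes called were 473 (320 to 516), and 1072 with DESeq2, 1357 with limma and 253 without libraries 7, 8 and 15. The split of 120 higher and 353 lower became 207 and 294 with DESeq2 size factors and 251 and 266 with TMM from abundant genes, where the median log2 fold change moved from 0.24 to 0.40 and 0.45. For bone marrow against MC903 resident cells, chemokine genes called were 2 (1 to 2), and 1 with DESeq2 size factors, without the filter, with the 2 groups alone and without libraries 7, 8 and 15, and 4 with limma. All genes called were 477 (298 to 704, the lowest without library 6, then 302 without library 7), and 748 without the filter, 1720 with DESeq2, 2073 with limma and 315 with the 2 groups alone, and the split of 277 higher and 200 lower turned to 167 and 242 with DESeq2 size factors and to 178 and 254 with TMM from abundant genes, where the median moved from -0.28 to -0.43. For bone marrow against untreated resident cells, chemokine genes called were 4 (2 to 4, the lowest without library 5), and 6 with limma, and all genes 1443 (1122 to 1549), and 2757 with DESeq2 and 2212 with limma. Apart from leaving out 1 library, the call on Ccl6 was lost there in 3 of 7 other alternatives and that on Ccl2 in 1 of 8. Sign changes were all in differences that did not pass. Between the resident groups, Ccl1 (-0.01) became 0.18 with DESeq2 size factors, 0.23 with TMM from abundant genes, 0.18 with DESeq2 and 0.0709 with the 2 groups alone (-0.42 to 0.42 leaving out a library), Ccl3 (-0.20) became 0.32 with limma and 0.52 without libraries 7, 8 and 15 (-1.05 to 0.73), Ccl9 (0.47) became -0.0819 with limma (-0.24 to 1.998), and Ccl4 (-0.71) ran from -2.22 to 0.0798, the highest without library 1. Ccl1 in bone marrow cells ran from -0.11 to 1.16 against MC903 and from -0.10 to 1.16 against untreated resident cells. The causes were not tested. Other ligands called against untreated resident cells were 2, and 0 without library 15. DESeq2 gave no adjusted p for Ccl6 and Ccl9. Ccl17 and Ccl22 had 0 to 202 and 0 to 31 counts, and a value of 3 counts or fewer cannot be told from 0.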

Other observations

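Immediate early genes, which are switched on within minutes of cell activation and whose Fos and Jun products form AP-1, were compared in the same fit. Of 16 such genes, all tested, 5 fell and none rose in MC903 resident against untreated resident cells, against 1.68% and 0.571% of all genes (edgeR quasi-likelihood test, Benjamini-Hochberg adjusted over 21014 genes), and 4 fell under the 2 other scalings of the libraries. Mitochondrial transcripts took 1.22% to 1.70% of counts in the untreated and 2.39% to 3.96% in the treated libraries, and their part in the change was not tested. Nr4a3, a nuclear receptor, was at 793 ± 152 CPM (SD, n = 5) in untreated and 246 ± 35.2 CPM (SD, n = 5) in treated resident cells, and fell by 1.69 ± 0.189 on the log2 scale (SE, adjusted p = 2.78e-05). The others were Nr4a2, Egr1, Junb and Egr3 (adjusted p = 0.00284, 0.0108, 0.0191 and 0.0452). In bone marrow against untreated resident cells 9 fell and 1 rose, against 3.37% and 3.49% of all genes. Without library 15 the numbers were the same, against 3.41% and 2.95% of all genes. The gene that rose was Ier3, a stress-response gene that protects cells from death, at 1712 ± 335 CPM (SD, n = 4) against 746 ± 169.9 CPM (SD, n = 5) (log2 fold change 1.199 ± 0.205, SE, adjusted p = 0.000699). Ier3 was also higher than in the treated resident cells, which held 524 ± 133 CPM (SD, n = 5) (log2 fold change 1.71 ± 0.206, SE, adjusted p = 5.87e-05), and there Egr3, Ier2 and Egr1 fell (adjusted p = 0.00348, 0.0420 and 0.0433), of which Ier2 and Egr1 were not called without library 15 (adjusted p = 0.0640 and 0.0805). Atf3 was called lower without it (log2 fold change -1.25, adjusted p = 0.00598, against -0.13 and 0.927 with it), so that 2 fell then. With all libraries 1.32% of all genes rose and 0.952% fell in that comparison. These comparisons share their groups.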
